A study of Mus musculus with 4 samples.

Results

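The endoplasmic reticulum (ER) stress and ATF4 response was described in mouse epididymal fat through 40 genes listed for their known roles, 18 of them in protein folding and degradation in the ER, 4 as the stress sensors and Xbp1, 16 in the ATF4 arm and amino acid supply, and 2 as stress hormones. Each gene was read from the probe set that carried its symbol alone and had the highest mean log2 value over the arrays. By this rule 38 of the 40 genes were found among 22180 genes, and 36 of them were above the floor, as were 10568 of all genes. The floor was the 60th percentile of all probe sets on an array, a log2 value between 5.89 and 5.91, and a gene was above it when its mean over the 4 arrays was at or above the mean of the 4 floors. Pdia4 shared its only probe set with other symbols and Gdf15 had none under its own symbol, so neither was read. Slc7a11 lay under the floor on all 4 arrays and Trib3 on 2 of them, and both stayed out of the medians and the fit.

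Total RNA of epididymal fat from 16-week-old male mice was measured on GeneChip Mouse Gene 2.0 arrays, with 1 mouse in each of 4 groups. The groups were AdipoKO on HFHS chow, flox/y on HFHS chow, AdipoKO on STD chow and flox/y on STD chow. All 4 mice carried a floxed allele of the neighbouring genes Mir221 and Mir222 on their single X chromosome, and the AdipoKO mice also carried the Adipoq-Cre transgene, which deletes this pair of microRNA genes in adipocytes and leaves other cells of the fat pad intact. The mice were bred as male littermates, of the C57BL/6J strain in the labels (C57BL/6JJcl in the study's methods), and from 5 weeks of age they received a high fat-high sucrose diet (HFHS, D12331) or a standard chow (STD, MF). The study names as a limit that the micronutrients of the 2 diets were not matched, which may possibly affect its outcomes. The question was how chow and the deletion changed gene expression in fat. With 1 mouse per group there was no replicate error, each ratio below is between 2 mice, and no test between 2 groups was possible.

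ER stress is sensed by IRE1, PERK and ATF6. IRE1 splices the mRNA of Xbp1, and spliced XBP1 and cleaved ATF6 switch on chaperones and the machinery that returns misfolded proteins to the cytosol for degradation. PERK phosphorylates eIF2 alpha, as the amino acid sensor GCN2 does, which slows translation in general but favours the transcription factor ATF4, whose targets make, import and charge amino acids. In fat, the secretory load of adipocytes and the nutrient supply bear on both arms.

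The promoters of the listed genes were searched for the elements through which the 2 arms are known to act, and those found are shown since the listed genes are grouped by these arms. In the 250 bases before the RefSeq start (GRCm38.p6), which 37 of the 40 genes had, the ER stress response element (ERSE, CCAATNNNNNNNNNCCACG, searched on both strands) was found in 8 genes, 7 of 13 in the folding group and 1 of 4 in the degradation group. Of 27025 genes with such a window, 0.13% carried it. The 9 elements of the 8 genes read as follows, from CCAAT to CCACG, with the fixed ends in capitals.
Hspa5: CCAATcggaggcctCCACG
Hsp90b1: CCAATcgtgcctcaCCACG
Hsp90b1: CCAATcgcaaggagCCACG
Dnajc3: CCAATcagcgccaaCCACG
Pdia6: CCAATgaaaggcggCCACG
Calr: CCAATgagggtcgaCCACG
Canx: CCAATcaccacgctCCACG
Creld2: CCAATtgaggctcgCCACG
Syvn1: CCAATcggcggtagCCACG
A related element, ERSE-II (ATTGGNCCACG), was found in Herpud1 alone among the listed genes and in 0.037% of all genes. The CCAAT-enhancer and ATF element (CARE, TGATGNAAN on either strand), to which ATF4 is known to bind, was found in 6 of the 37 genes and in 3.89% of all genes. It was absent from the folding group and the sensors in this window. Besides Slc7a11, which was under the floor, the genes with a CARE were the following, with the fixed letters in capitals.
Nupr1: TGATGcAAt
Chac1: TGATGcAAc
Asns: TGATGaAAc
Fgf21: TGATGcAAt
Herpud1: TGATGcAAc
Herpud1 carried both an ERSE-II and a CARE. For 3 genes to which the results below return, the whole window is given 5′ to 3′ on the strand of the gene, with the ERSE (Creld2) or the CARE (Chac1 and Asns) in capitals.
Creld2 (chr15:88819396-88819645, plus strand): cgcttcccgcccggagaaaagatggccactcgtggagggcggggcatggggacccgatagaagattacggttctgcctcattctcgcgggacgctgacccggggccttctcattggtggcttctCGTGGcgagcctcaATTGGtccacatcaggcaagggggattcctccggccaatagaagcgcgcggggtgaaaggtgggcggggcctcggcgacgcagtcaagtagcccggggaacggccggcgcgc
Chac1 (chr2:119350992-119351241, plus strand): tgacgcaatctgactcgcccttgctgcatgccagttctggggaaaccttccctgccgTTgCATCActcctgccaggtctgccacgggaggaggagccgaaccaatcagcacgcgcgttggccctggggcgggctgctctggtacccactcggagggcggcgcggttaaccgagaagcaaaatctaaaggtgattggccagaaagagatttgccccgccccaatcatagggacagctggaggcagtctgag
Asns (chr6:7693210-7693459, minus strand): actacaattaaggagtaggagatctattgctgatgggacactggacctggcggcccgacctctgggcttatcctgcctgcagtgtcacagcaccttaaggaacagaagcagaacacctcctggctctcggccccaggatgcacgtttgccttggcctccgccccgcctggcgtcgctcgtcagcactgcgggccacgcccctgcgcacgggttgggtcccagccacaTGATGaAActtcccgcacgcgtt
A match describes the letters only, and binding was not measured here. The genes were listed for known roles in these arms, so their shares are a description and no test of the grouping.

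The medians of the 4 arrays lay between 5.39 and 5.42 on the log2 scale, and pairs of arrays correlated at 0.974 to 0.985 over all probe sets. Mir221 and Mir222 lay under the floor on all 4 arrays, which therefore did not check the genotypes. Of 9 adipocyte markers read, 9 were above the floor on every array, and of 9 markers of epididymal epithelium none was on any. A pair of arrays stood apart. On the HFHS flox/y array 13 of 15 hepatocyte markers were above the floor, and their summed expression (linear scale) was 7489 in HFHS AdipoKO, 17434 in HFHS flox/y, 9140 in STD AdipoKO and 9089 in STD flox/y. Without Cyp2e1, which fat also expresses and which was bright on all 4 arrays, the sum of the other 14 was 1002 in HFHS AdipoKO, 11654 in HFHS flox/y, 2052 in STD AdipoKO and 1326 in STD flox/y. On the STD flox/y array immediate early genes were high, with sums of 4785, 3229, 3740 and 9259 on the arrays in the same order, and so were cytosolic heat shock genes, with 5881, 6756, 5172 and 9663. With 1 mouse per group no array could be left out, and the only comparison that used neither of these 2 arrays was HFHS over STD in AdipoKO. In whole fat, fewer cells of a type and less RNA per cell cannot be told apart.

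Over the 36 genes the value varied by a median of 0.41 on the log2 scale from the lowest to the highest array, against 0.35 over all genes above the floor. Asns varied most among the listed genes (1.26), followed by Chac1 (1.15) and Xbp1 (1.02). A span as large as that of Asns was found in 2.89% of all genes. The heat map of deviations shows 3 separate patterns, namely ER folding and degradation genes high in HFHS flox/y, a group around Asns and Chac1 high on STD chow in both genotypes, and Xbp1 high in HFHS AdipoKO and STD flox/y. Ppp1r15a was also above its mean on those 2 arrays and below it on the others, by less than 0.2.

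**Figure D1:**
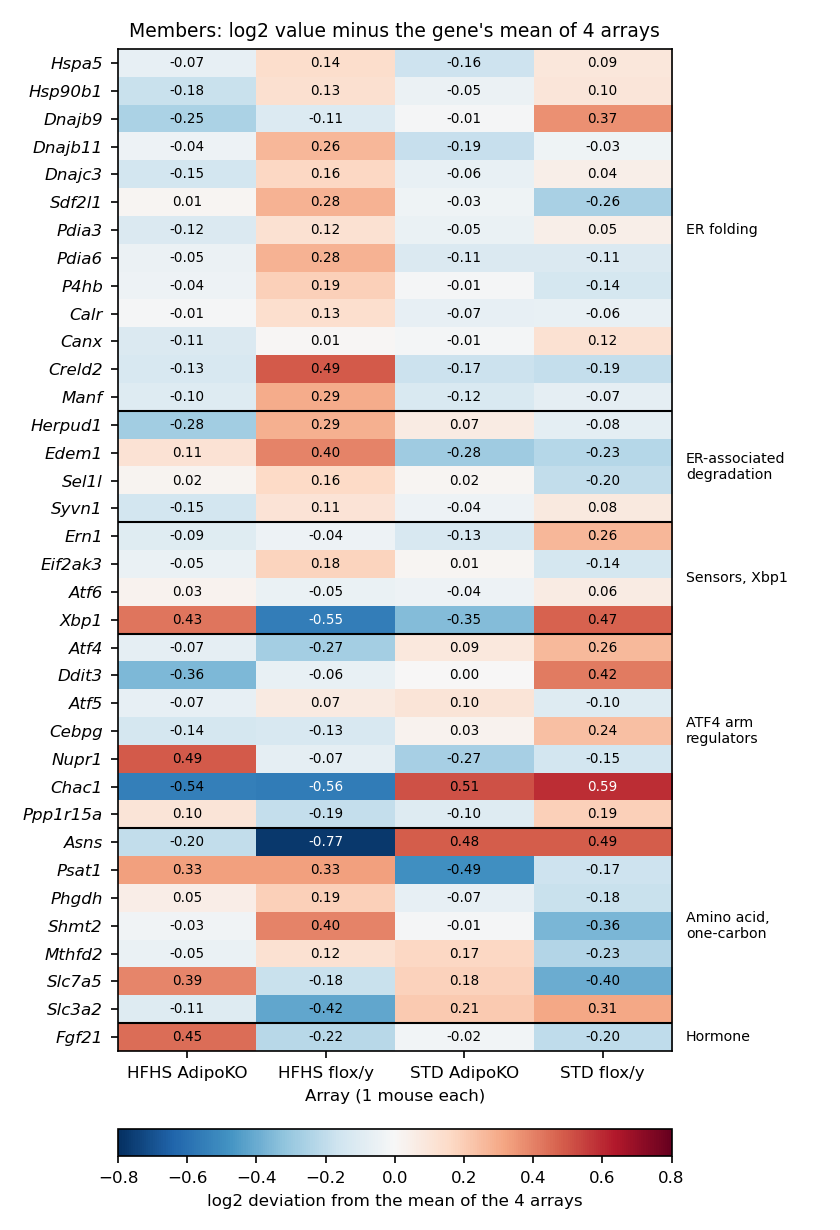
Log2 value of each of the 36 genes above the floor minus the mean of that gene over the 4 arrays, with arrays in columns (1 mouse each) and genes in rows ordered by role; red is above and blue below the gene's own mean. HFHS flox/y stood above the mean for 16 of the 17 ER folding and degradation genes, while Chac1 and Asns were above it on both STD arrays and below it on both HFHS arrays.

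Between genotypes on HFHS chow, all 17 ER folding and degradation genes had lower values in the AdipoKO mouse. The log2 ratio of AdipoKO over flox/y lay between -0.62 and -0.12 with a median of -0.26, while the median over all genes was -0.00 and 50.6% of all genes were below 0. On STD chow 11 of the 17 genes were below 0 and the median was -0.06, against 0.00 over all genes, of which 5280 of 10568 were below 0. The differences were small, and 1 of the 17 genes reached 1.5-fold on HFHS and none on STD. Since all 17 were below 0 on HFHS, the 11 below 0 on STD were also the genes lower on both chows, and this adds nothing to the count on STD. The same HFHS flox/y array held the high hepatocyte markers. In the same comparison 9 of 10 hepatocyte markers were below 0 (median -3.47), as were 9 of 9 fibroblast and matrix markers (median -0.55) and 6 of 10 macrophage markers (median -0.49). Above 0 were 9 of 10 endothelial markers (median 0.29) and 14 of 14 immediate early genes (median 0.47). Alb, the albumin gene of hepatocytes, had log2 values of 8.17 in HFHS AdipoKO, 12.21 in HFHS flox/y, 9.83 in STD AdipoKO and 8.69 in STD flox/y. On STD chow the immediate early list, high in flox/y, had a median of -1.43. The part of these cells and genes in the ER values was not tested.

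Creld2, an ER-resident disulfide isomerase induced by ER stress, had log2 values of 8.18 in HFHS AdipoKO, 8.79 in HFHS flox/y, 8.13 in STD AdipoKO and 8.11 in STD flox/y. The HFHS flox/y mouse was the high one and the other 3 lay within 0.1 of each other. On HFHS chow Creld2 was 1.53-fold lower in the AdipoKO mouse than in the flox/y mouse, and on STD chow it was 1.02-fold higher. It was the only one of 36 genes at least 1.5-fold lower on HFHS, where 3.11% of 11122 genes counted in the comparison passed that limit. Genes were counted when the brighter array was at or above its own floor. Herpud1, a membrane component of the degradation machinery, lay just short of the limit, with values of 9.11 in HFHS AdipoKO, 9.67 in HFHS flox/y, 9.45 in STD AdipoKO and 9.31 in STD flox/y, and was 1.48-fold lower in AdipoKO on HFHS chow.

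Hspa5, which encodes the central ER chaperone BiP, had log2 values of 8.89 in HFHS AdipoKO, 9.10 in HFHS flox/y, 8.79 in STD AdipoKO and 9.05 in STD flox/y. Both AdipoKO mice were below both flox/y mice, by 1.15-fold on HFHS and 1.19-fold on STD. In limma over both chows (2 AdipoKO against 2 flox/y mice, with chow as a covariate) its log2 difference was -0.23 ± 0.12 (SE, adjusted p = 1). Of the other folding genes, the log2 ratio on HFHS lay at -0.30 for Hsp90b1, the ER paralogue of HSP90, at -0.31 for the co-chaperone Dnajb11 and at -0.31 for the co-chaperone Dnajc3. It was -0.32 for Pdia6, which forms disulfide bonds, -0.40 for Manf, a secreted chaperone cofactor, and -0.26 for Sdf2l1, a component of the BiP complex. Pdia3, P4hb, Calr, Canx and Dnajb9 lay between -0.24 and -0.12. Of the degradation genes, Edem1, which recognises misfolded glycoproteins, was at -0.28, the ubiquitin ligase gene Syvn1 at -0.26 and its partner Sel1l at -0.13. The 8 folding and degradation genes with an ERSE had a median log2 ratio of -0.28 on HFHS (range -0.62 to -0.12), and 8 others with a window but no ERSE had one of -0.25 (range -0.56 to -0.13). The others included Herpud1, which carries an ERSE-II and set the lower end of their range. On STD the medians were -0.11 with an ERSE (range -0.25 to 0.02) and 0.04 without (range -0.38 to 0.22). The ranges of genes with and without the element overlapped on both chows. For HFHS over STD the medians with and without an ERSE were -0.02 and -0.01 in AdipoKO, and 0.08 and 0.34 in flox/y.

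**Figure D2:**
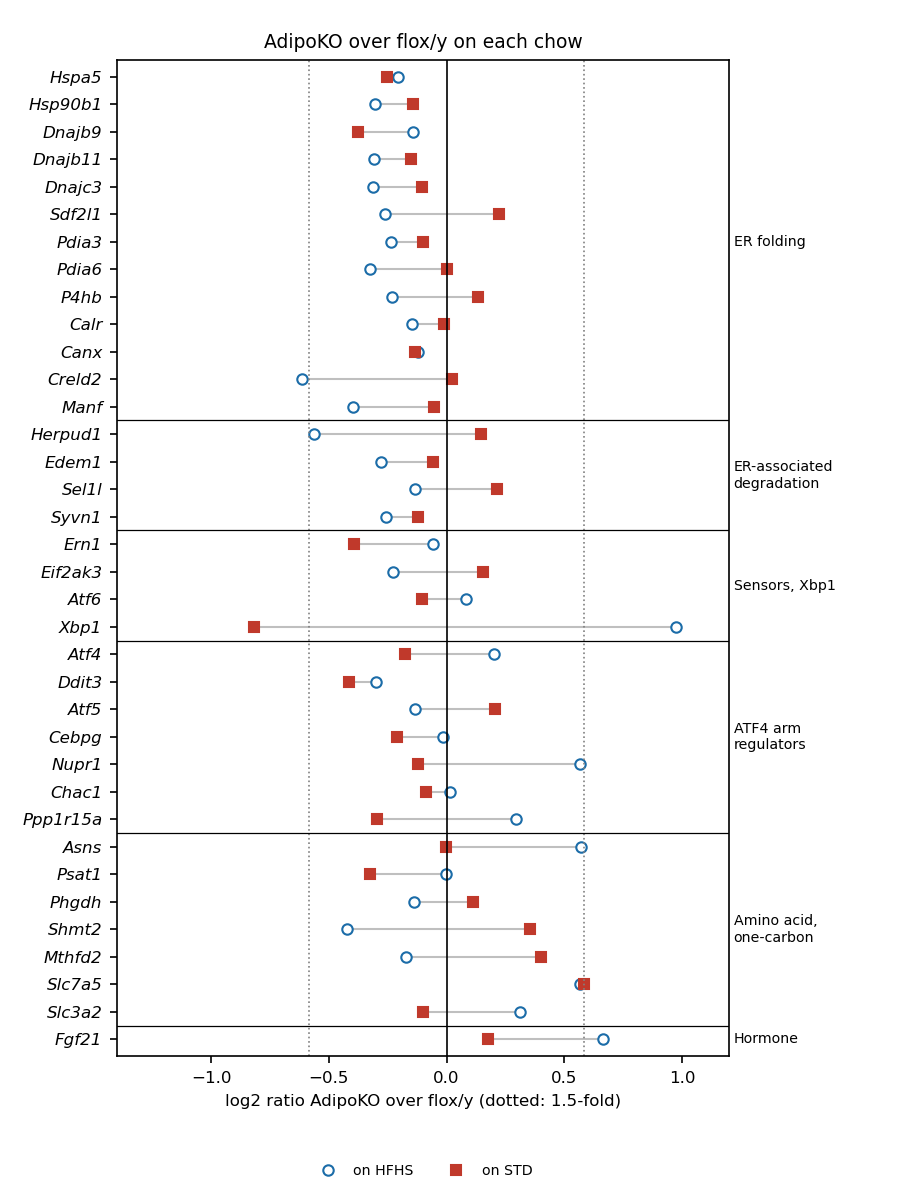
Log2 ratio of AdipoKO over flox/y on HFHS (open circles) and on STD (filled squares) for the 36 genes above the floor, ordered by role; dotted lines mark 1.5-fold and each ratio is between 2 mice. All 17 ER folding and degradation genes were below 0 on HFHS, and Xbp1 was past 1.5-fold in opposite directions on the 2 chows.

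Xbp1 did not follow the ER folding genes. Its log2 values were 10.50 in HFHS AdipoKO, 9.52 in HFHS flox/y, 9.72 in STD AdipoKO and 10.54 in STD flox/y, so that the HFHS AdipoKO and STD flox/y mice were high and the HFHS flox/y and STD AdipoKO mice low. On HFHS chow Xbp1 was 1.97-fold higher in the AdipoKO mouse than in the flox/y mouse, and on STD chow it was 1.76-fold lower. The log2 ratio on HFHS minus that on STD was 1.79, a difference that 93 genes (0.88%) reached or passed in size. On the HFHS arrays, where Creld2 and Hspa5 were lower in AdipoKO, Xbp1 was higher. The immediate early list had the same signs as Xbp1. On HFHS chow 14 of its 14 genes were above 0 for AdipoKO over flox/y (median 0.47), and on STD chow 14 of 14 were below 0 (median -1.43). Hepatocyte markers were high in HFHS flox/y, and the part of these lists in the Xbp1 values was not tested. The probe set does not separate spliced from unspliced Xbp1 mRNA, which differ in a short intron. In limma the effects over both chows or both genotypes took this opposition as error, and the log2 differences were 0.08 ± 0.48 for AdipoKO over flox/y and -0.12 ± 0.48 for HFHS over STD (SE, adjusted p = 1 and 0.922).

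The 3 sensors varied less than Xbp1. Ern1, which encodes IRE1, had log2 values of 7.24 in HFHS AdipoKO, 7.30 in HFHS flox/y, 7.20 in STD AdipoKO and 7.60 in STD flox/y, with only the STD flox/y mouse apart. Eif2ak3, which encodes PERK, lay between 6.61 and 6.92, and Atf6 between 8.18 and 8.30. None of the 3 reached 1.5-fold in any of the 4 comparisons.

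Among all listed genes, Xbp1 and Fgf21 were past 1.5-fold higher in AdipoKO on HFHS, 2 of 36 (2.26% of all genes), and Creld2 was past 1.5-fold lower. On STD none of 37 was higher (1.37% of all genes) and 1, Xbp1, was lower (2.83% of 10845 genes). Fgf21, a fasting and stress hormone, had log2 values of 6.85 in HFHS AdipoKO, 6.18 in HFHS flox/y, 6.38 in STD AdipoKO and 6.20 in STD flox/y. The HFHS AdipoKO mouse was the high one, 1.59-fold above HFHS flox/y. The other 3 were less than 0.5 above the floor. Asns, Nupr1 and Slc7a5 lay just under the limit on HFHS, being 1.49-fold, 1.48-fold and 1.48-fold higher in AdipoKO.

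**Figure D3:**
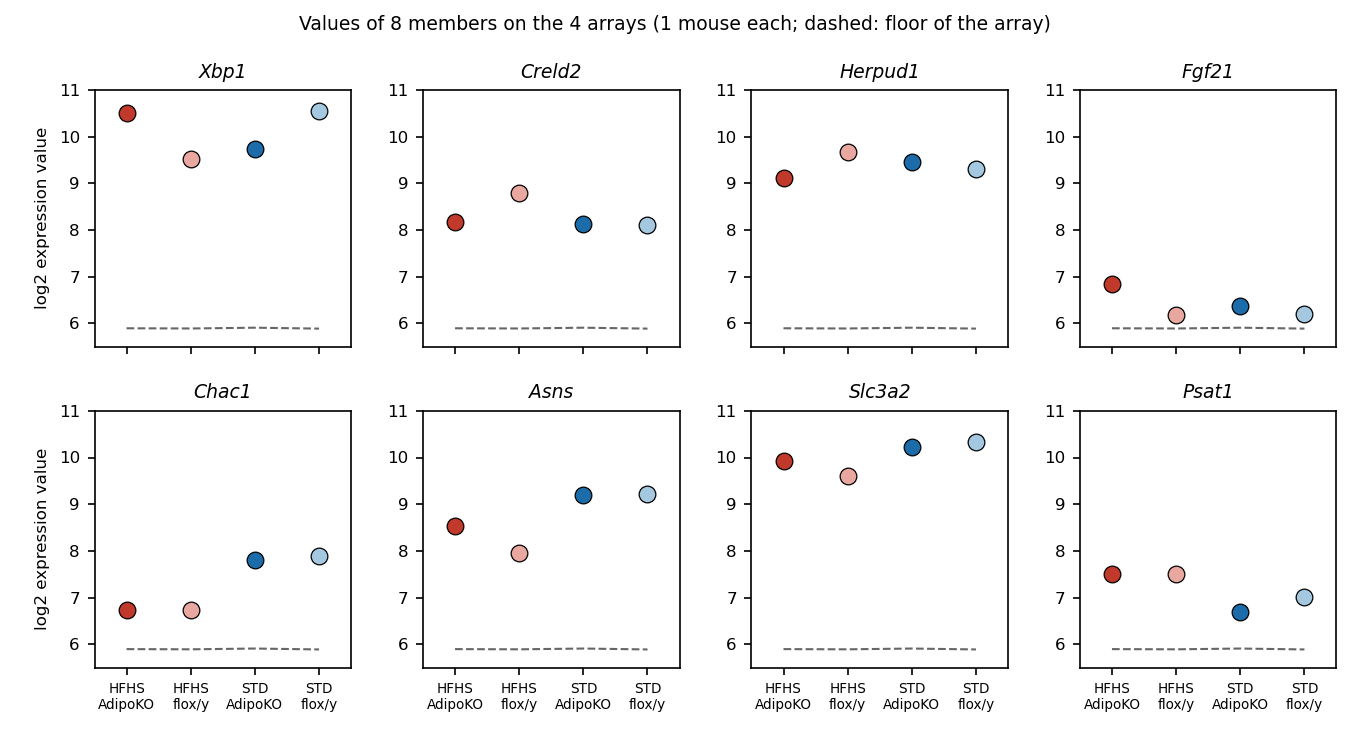
Log2 expression values of 8 listed genes on the 4 arrays (1 mouse each, from left HFHS AdipoKO, HFHS flox/y, STD AdipoKO, STD flox/y), with the floor of each array as a dashed line. Xbp1 was high in HFHS AdipoKO and STD flox/y, Creld2 in HFHS flox/y, and Chac1, Asns and Slc3a2 on both STD arrays.

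Between chows the largest differences with the same sign in both genotypes were those of Chac1 and Asns. Chac1, a stress-induced enzyme that degrades glutathione, had log2 values of 6.74 in HFHS AdipoKO, 6.73 in HFHS flox/y, 7.79 in STD AdipoKO and 7.88 in STD flox/y. The 2 HFHS mice and the 2 STD mice did not overlap, and mice on the same chow differed by at most 0.1. Chac1 was 2.07-fold lower on HFHS than on STD in AdipoKO and 2.22-fold lower in flox/y. Asns, which makes asparagine and is a classical ATF4 target, had values of 8.52 in HFHS AdipoKO, 7.95 in HFHS flox/y, 9.21 in STD AdipoKO and 9.21 in STD flox/y, again with both HFHS mice below both STD mice. It was 1.60-fold lower on HFHS in AdipoKO and 2.39-fold lower in flox/y. Slc3a2, the heavy chain shared by several amino acid exchangers, had values of 9.91 in HFHS AdipoKO, 9.60 in HFHS flox/y, 10.23 in STD AdipoKO and 10.33 in STD flox/y, and was 1.25-fold lower on HFHS in AdipoKO and 1.66-fold lower in flox/y.

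The transcription factor genes at the head of this arm differed less. Atf4 had log2 values of 7.73 in HFHS AdipoKO, 7.53 in HFHS flox/y, 7.89 in STD AdipoKO and 8.06 in STD flox/y, and was 1.12-fold lower on HFHS in AdipoKO and 1.45-fold lower in flox/y. ATF4 is set mainly by translation, which the arrays did not measure. Ddit3, which encodes the pro-apoptotic factor CHOP, had values of 6.42 in HFHS AdipoKO, 6.72 in HFHS flox/y, 6.78 in STD AdipoKO and 7.20 in STD flox/y. It was lower on HFHS within each genotype, 1.28-fold in AdipoKO and 1.39-fold in flox/y, and lower in AdipoKO within each chow, 1.23-fold on HFHS and 1.33-fold on STD. Cebpg, a dimer partner of ATF4, was 1.13-fold lower on HFHS in AdipoKO and 1.29-fold lower in flox/y. Atf5, Ppp1r15a (GADD34, which reverses eIF2 alpha phosphorylation) and Nupr1 did not keep a lower value on HFHS in both genotypes. Ppp1r15a had log2 ratios of HFHS over STD of 0.20 in AdipoKO and -0.39 in flox/y, and Atf5, an ATF4 relative, of -0.17 in AdipoKO and 0.17 in flox/y. Trib3, a pseudokinase that restrains ATF4 and CHOP signalling, lay around the floor, between 5.64 and 5.97, and gave no usable ratio on HFHS, where both mice were under it.

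The serine synthesis genes Psat1 and Phgdh were higher on HFHS in both genotypes, while the folate genes Shmt2 and Mthfd2 were higher in flox/y alone. Psat1, a serine synthesis enzyme, had log2 values of 7.50 in HFHS AdipoKO, 7.50 in HFHS flox/y, 6.68 in STD AdipoKO and 7.00 in STD flox/y, with both HFHS mice above both STD mice. On HFHS it was 1.76-fold higher in AdipoKO and 1.41-fold higher in flox/y. Phgdh, the first enzyme of that pathway, was 1.09-fold higher in AdipoKO and 1.30-fold higher in flox/y. Shmt2, the mitochondrial serine hydroxymethyltransferase, had values of 6.57 in HFHS AdipoKO, 6.99 in HFHS flox/y, 6.59 in STD AdipoKO and 6.23 in STD flox/y, and on HFHS it was 1.01-fold lower in AdipoKO but 1.69-fold higher in flox/y. Mthfd2, a mitochondrial folate enzyme, was above the floor on 2 of the 4 arrays, and its values lay between 5.67 and 6.08, with log2 ratios of HFHS over STD of -0.22 in AdipoKO and 0.35 in flox/y. Slc7a11, the cystine exchanger subunit, had values of 3.66 to 3.98, all under the floor, and no fold was given for it. Slc7a5, the light chain that pairs with the Slc3a2 product, had values of 6.55 in HFHS AdipoKO, 5.98 in HFHS flox/y, 6.34 in STD AdipoKO and 5.76 in STD flox/y. Here the mice divided by genotype, both AdipoKO mice being above both flox/y mice, by 1.48-fold on HFHS and at least 1.37-fold on STD, where the flox/y value was under the floor. Psat1 and Phgdh thus differed between chows in the direction opposite to Asns, although all 3 are known ATF4 targets in cultured cells.

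The ER folding and degradation genes stood near 0 between chows in AdipoKO and mostly above 0 in flox/y. In AdipoKO their median log2 ratio of HFHS over STD was 0.01, with 9 of the 17 above 0, and in flox/y it was 0.30, with 15 above 0. Over all genes the medians were -0.02 in AdipoKO and -0.01 in flox/y, with 47.6% and 48.8% above 0. Edem1 had log2 values of 9.05 in HFHS AdipoKO, 9.33 in HFHS flox/y, 8.66 in STD AdipoKO and 8.71 in STD flox/y, and both HFHS mice were above both STD mice. On HFHS it was 1.32-fold higher in AdipoKO and 1.54-fold higher in flox/y. These values are from the brighter of 2 probe sets of Edem1, and with the mean of both the flox/y ratio fell short of 1.5-fold. Creld2 was 1.03-fold higher in AdipoKO and 1.61-fold higher in flox/y, and Sdf2l1 1.03-fold and 1.45-fold. Dnajb9, a co-chaperone of BiP, and Canx were the only genes of the group lower on HFHS in both genotypes. Dnajb9 was 1.18-fold lower in AdipoKO and 1.39-fold lower in flox/y, and Canx 1.07-fold and 1.08-fold. The difference between genotypes was not tested, since it needs replicate mice. The comparison in flox/y used both arrays that stood apart, and in it the hepatocyte list had a median log2 ratio of 3.26, the fibroblast and matrix list 0.96, the immediate early list -1.62 and the cytosolic heat shock list -0.52. In AdipoKO these medians were -0.59, 0.33, 0.45 and 0.17. The macrophage list had a median of 0.05 in AdipoKO and 0.36 in flox/y, the endothelial list 0.09 and -0.22, and the mesothelial list -0.27 and -0.49. Of the 36 listed genes above the floor, 13 were higher on HFHS in both genotypes (29.7% of all genes) and 8 were lower in both (33.2% of all genes). Psat1 and Edem1 were among the former, and Chac1 and Asns among the latter. The part of the other lists in the ratios was not tested.

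Xbp1 and Nupr1 completed the genes past 1.5-fold. Xbp1 was 1.71-fold higher on HFHS in AdipoKO and 2.03-fold lower in flox/y. Nupr1, a stress-induced chromatin protein, had log2 values of 9.27 in HFHS AdipoKO, 8.70 in HFHS flox/y, 8.51 in STD AdipoKO and 8.63 in STD flox/y. Its HFHS AdipoKO value was the high one, 1.69-fold above STD AdipoKO, while the flox/y mice differed by 1.05-fold. In all, 3 of 37 listed genes (Psat1, Xbp1 and Nupr1) were past 1.5-fold higher on HFHS chow in AdipoKO, against 3.71% of 11023 genes, and 2 (Chac1 and Asns) were lower, against 3.89%. In flox/y 3 of 37 (Shmt2, Creld2 and, by its brighter probe set, Edem1) were higher, against 6.07% of 11087 genes. There 4 (Asns, Chac1, Xbp1 and Slc3a2) were lower, against 7.37%. These shares of the list are a description, as the genes were picked for their function and are few.

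**Figure D4:**
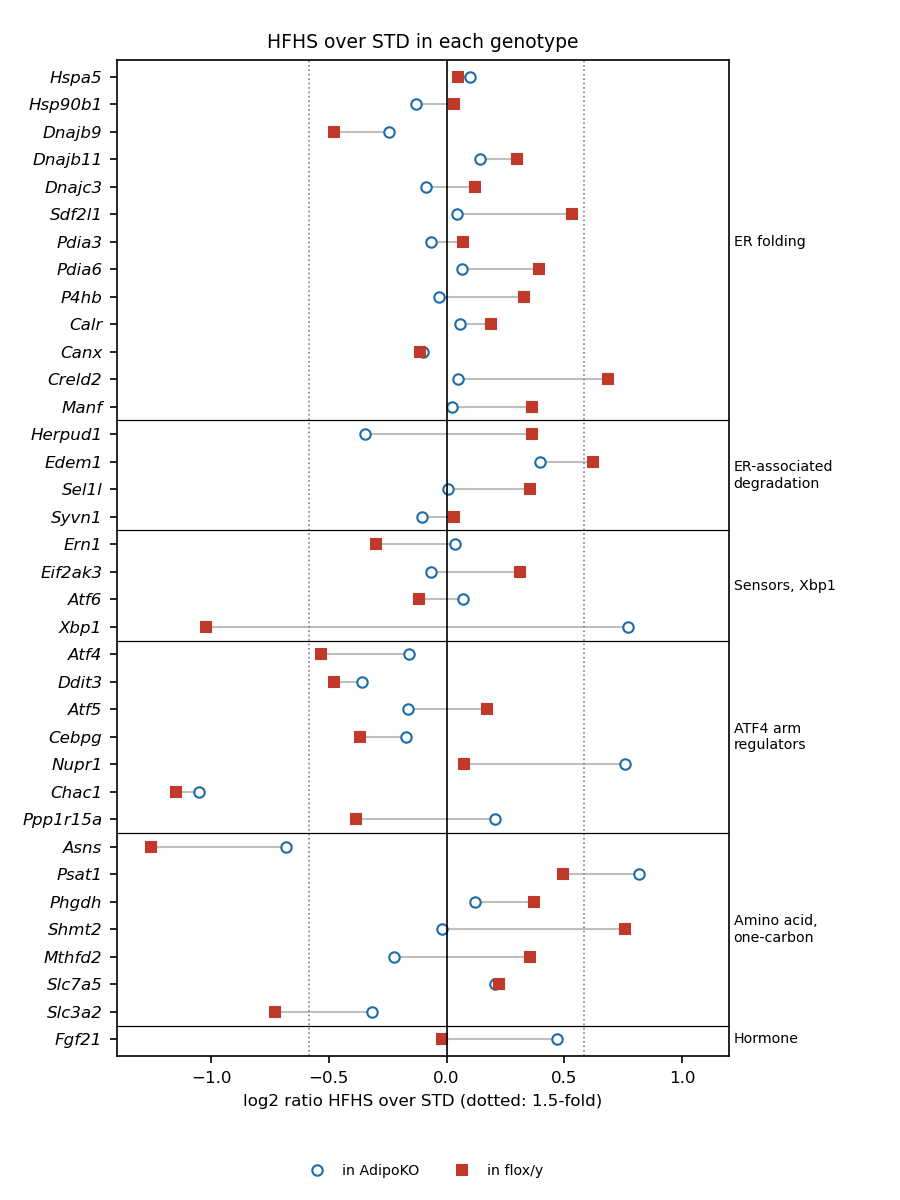
Log2 ratio of HFHS over STD in AdipoKO (open circles) and in flox/y (filled squares) for the 36 genes above the floor, ordered by role; dotted lines mark 1.5-fold and each ratio is between 2 mice. Chac1 and Asns were past 1.5-fold lower in both genotypes, Xbp1 lay on opposite sides, and the ER folding and degradation genes were mostly above 0 in flox/y and around 0 in AdipoKO.

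The only test that the design allowed was limma across 10568 genes with genotype and chow as terms, which compared 2 with 2 mice on 1 residual degree of freedom. For HFHS over STD it called none of the 36 listed genes at an adjusted p under 0.05 (0% of all genes), and at an unadjusted p under 0.05 it called 2 higher (5.86% of all genes) and 4 lower (7.4% of all genes). The log2 difference was -1.10 ± 0.12 for Chac1 (SE, limma adjusted p = 0.321), -0.97 ± 0.19 for Asns (adjusted p = 0.328) and 0.66 ± 0.15 for Psat1 (adjusted p = 0.328). Edem1 (0.51 ± 0.13, higher), Slc3a2 (-0.52 ± 0.15, lower) and Ddit3 (-0.42 ± 0.12, lower) had limma adjusted p-values of 0.351, 0.364 and 0.367. All 6 held their direction in both genotypes, which the fit favours because it takes the difference between the 2 chow ratios as error. Of all genes 29.7% were higher on HFHS in both genotypes and 33.2% were lower in both. None of the 6 passed the adjustment. For AdipoKO over flox/y limma called none of the 36 after adjustment (0% of all genes), and at an unadjusted p under 0.05 it called 1 higher (0.653% of all genes), Slc7a5 with 0.57 ± 0.11 (SE, adjusted p = 1), and 1 lower (0.927% of all genes), Ddit3 with -0.36 ± 0.12 (adjusted p = 1). An exact permutation of 2 against 2 mice could not give a p below 0.333.

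ER folding and degradation genes and the genes of ATF4 and amino acid supply were then set side by side. Between genotypes on HFHS their median log2 ratios were -0.26 and 0.01, and on STD -0.06 and -0.09. Between chows they were 0.01 and -0.16 in AdipoKO and 0.30 and -0.15 in flox/y. The ER median minus the ATF4 median was -0.27 on HFHS and 0.04 on STD for AdipoKO over flox/y, and 0.17 in AdipoKO and 0.45 in flox/y for HFHS over STD. The ATF4 median in flox/y depended on the setting, being -0.38 with the floor at the 70th percentile and -0.06 after quantile normalization. The ER median in flox/y was 0.24 and 0.37 under the same settings, so both parts of the difference of 0.45 moved. Within the ATF4 arm, the regulators were at -0.17 in AdipoKO and -0.39 in flox/y for HFHS over STD, and the amino acid and folate genes at -0.02 in AdipoKO and 0.35 in flox/y. The amino acid group was divided, with Asns and Slc3a2 lower and Psat1 and Phgdh higher in both genotypes, so its median describes neither side. The genotype and chow comparisons share arrays, and their medians are not independent of each other.

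**Figure D5:**
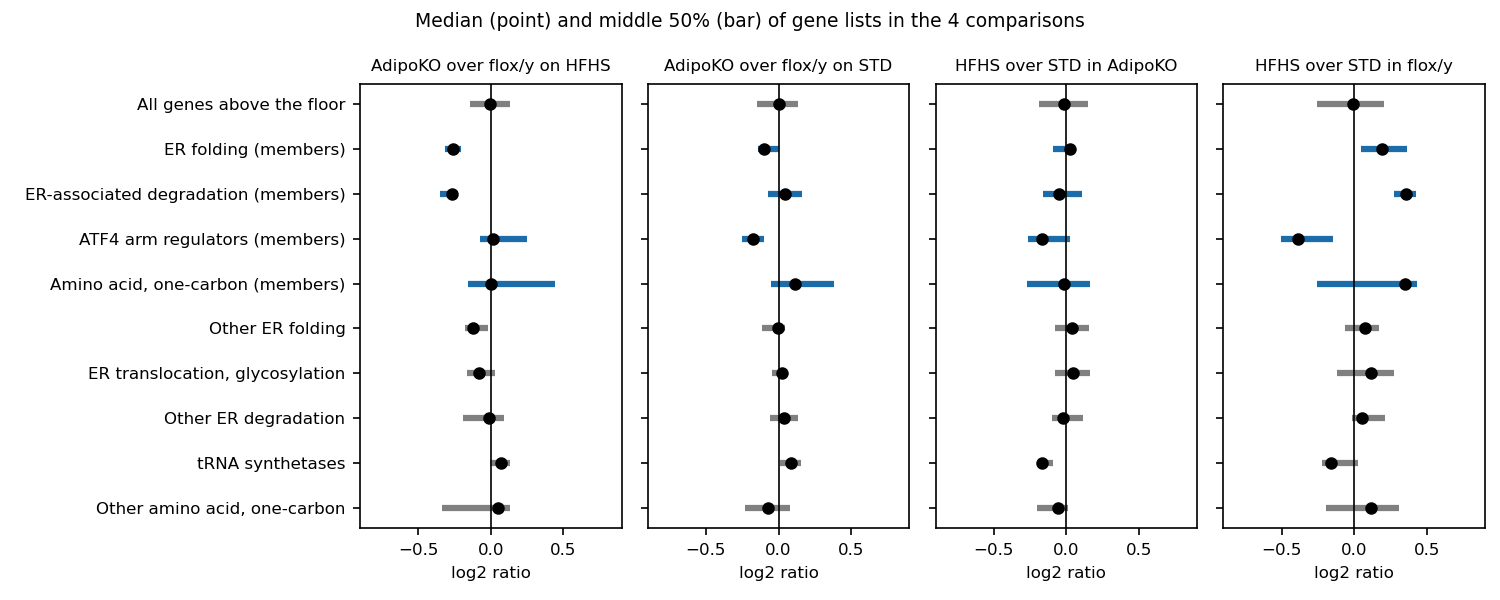
Median (point) and middle 50% of genes (bar) of the log2 ratio in the 4 comparisons, for all genes above the floor, the 4 larger groups of listed genes (blue bars) and other lists of the same pathways (grey bars). ER folding and degradation genes stood below 0 for AdipoKO over flox/y on HFHS and above 0 for HFHS over STD in flox/y, while the other ER lists lay closer to 0.

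Other genes of the same pathways were read from lists of 15 further ER folding genes, 22 of ER translocation and glycosylation, 15 of degradation, 16 regulators, 12 tRNA synthetases, 12 of amino acid and folate metabolism and 8 further ATF4 targets, 100 above the floor in all. For AdipoKO over flox/y, 2 of 100 on HFHS were past 1.5-fold higher (2.26% of all genes) and 1 was lower (3.11%), and on STD 1 of 99 was higher (1.37%) and 5 were lower (2.83%). For HFHS over STD 3 of 98 were higher (3.71% of all genes) and 1 lower (3.89%) in AdipoKO, and 4 of 100 were higher (6.07%) and 6 lower (7.37%) in flox/y. The further ER folding genes had a median of -0.12 between genotypes on HFHS chow, with 11 of 15 below 0, and those of translocation and glycosylation -0.08, with 16 of 22 below 0, both nearer to 0 than the median of -0.26 of the listed genes. The further degradation genes had a median of -0.01, with 9 of 15 below 0. Of all genes 50.6% were below 0 between genotypes on HFHS chow. Hyou1, an ER chaperone of the HSP70 class, had log2 values of 8.31 in HFHS AdipoKO, 8.77 in HFHS flox/y, 8.40 in STD AdipoKO and 8.35 in STD flox/y, with HFHS flox/y alone high, as for Creld2. Pdia5 and Ppib, both ER folding enzymes, had ratios of -0.21 and -0.17 on HFHS, Txndc11, a thioredoxin domain gene, one of 0.21, and Ostc, an oligosaccharyltransferase component, one of -0.41.

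The tRNA synthetases had a median log2 ratio of HFHS over STD of -0.17 in AdipoKO, with 10 of 12 below 0. In flox/y it was -0.16, with 8 of 12 below 0. Over all genes 52.3% were below 0 in AdipoKO (median -0.02) and 51.1% in flox/y (median -0.01). None of the 12 reached 1.5-fold. Past that limit, 3.71% of all genes were higher and 3.89% lower in AdipoKO, and 6.07% and 7.37% in flox/y. Eprs, the glutamyl-prolyl-tRNA synthetase, had a ratio of -0.18 in AdipoKO and -0.55 in flox/y, and the isoleucyl enzyme Iars one of -0.15 and -0.42. Slc38a2, an amino acid transporter under ATF4 control, had log2 values of 9.30 in HFHS AdipoKO, 9.12 in HFHS flox/y, 9.56 in STD AdipoKO and 10.35 in STD flox/y, the STD flox/y mouse being high. Ppp1r15b, the constitutive partner of the eIF2 alpha phosphatase, had 8.40, 8.23, 8.64 and 9.32 on the arrays in the same order. Atf3 (7.49, 7.73, 7.03 and 8.62) and Cebpb (8.09, 7.42, 7.69 and 8.53), transcription factor genes that many stimuli induce, were also highest in STD flox/y. That array held the high immediate early genes, such as Egr1 with 8.17 in HFHS AdipoKO, 6.75 in HFHS flox/y, 6.52 in STD AdipoKO and 10.03 in STD flox/y, and their part was not tested. Sesn2, a stress-induced regulator of mTORC1, was high in STD AdipoKO instead, with values of 7.91 in HFHS AdipoKO, 8.08 in HFHS flox/y, 8.96 in STD AdipoKO and 7.94 in STD flox/y. Cth, the cystathionine gamma-lyase gene, was above the floor in HFHS flox/y alone, at least 1.70-fold above HFHS AdipoKO and at least 1.71-fold above STD flox/y. The HFHS flox/y array held the high hepatocyte markers, and their part in the Cth values was not tested. Creb3l1, a membrane-bound transcription factor of the ATF6 family, was 1.71-fold higher in the AdipoKO mouse on HFHS, with values of 8.49 in HFHS AdipoKO, 7.72 in HFHS flox/y, 7.77 in STD AdipoKO and 7.89 in STD flox/y.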

How the data were processed

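Total RNA of epididymal fat was hybridised to GeneChip Mouse Gene 2.0 arrays and analysed for the authors by Filgen. The values deposited by the authors are log2 expression of 41345 probe sets on 4 arrays, 1 per group. How they were normalized was not given in the sources used here. Groups came from the sample titles and genotypes. The labels' source field was not used, since it gives a different microRNA line and in part a different chow.

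Of the probe sets, 23521 had exactly 1 symbol in the platform annotation, and each gene was represented by the brightest of them. Ratios are differences of log2 values between 2 arrays. A gene was counted past 1.5-fold when the brighter array was at or above its floor (60th percentile). Where the dimmer array was under its floor, the fold is a lower bound against that floor. limma 3.58.1 in R 4.3.3 fitted genotype and chow to genes above the floor, with a trend and Benjamini-Hochberg adjustment. The fit was tested on simulated data. Python 3.11.15 with pandas 2.3.3, numpy 2.4.6 and matplotlib 3.10.9 did the rest. Promoter elements were searched in RefSeq windows of GRCm38.p6.

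The listed genes, the other lists and the tests were chosen with earlier results of these data known. Values on all arrays are printed for listed genes at least 1.5-fold different in any comparison and for Atf4, Ddit3, Xbp1 and Hspa5, and further for a few chosen after their values were seen (Herpud1, Ern1, Slc7a5 and, of the other lists, Txndc11). Of each other pathway list, up to 3 genes with the largest ratio could be named. The number of mice limits the precision. Alternatives were quantile normalization, centring on bright probe sets, the mean of all probe sets, other floors, a 2-fold limit and other limma settings.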

Additional observations from a re-analysis of the deposited data

Results flagged for a closer look

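Xbp1 ran opposite ways between genotypes on the 2 chows. Between AdipoKO and flox/y its log2 ratio was 0.98 on HFHS and -0.82 on STD, so that the ratio on HFHS minus that on STD was 1.79. It was the only one of the 36 genes above the floor that was at least 1.5-fold different in opposite directions on the 2 chows. How many of all genes did so was not counted. A difference at least as large as its 1.79 was found in 93 of 10568 genes (0.88%). The difference was not tested, since each value comes from 1 mouse. The immediate early list reversed as well, with 14 of 14 genes above 0 on HFHS (median 0.47) and 14 of 14 below 0 on STD (median -1.43). The hepatocyte list was high in HFHS flox/y. The part of either list in the values of Xbp1 was not tested.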

How the results depend on the processing

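Each group holds 1 mouse, so leaving out a mouse was not possible and the spread between mice of a group is not known. No paired analysis was possible because each group holds 1 mouse. A low array value has no read depth, and what limits it is the floor. Values within 0.1 on the log2 scale of the reported ones were taken as the same.

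Counts were taken as the same within 1.5 times. By these limits 124 of 132 recomputed counts and medians were the same, and no ratio or median reversed its sign beyond that limit. All 17 ER folding and degradation genes were below 0 for AdipoKO over flox/y on HFHS after quantile normalization and after centring on bright probe sets, as in the deposited values, with medians of -0.25 and -0.26. With a 2-fold limit in place of 1.5-fold, no listed gene was higher (2 before) or lower (1 before) in AdipoKO on HFHS, none was lower on STD (1 before), none was higher on HFHS than on STD in AdipoKO (3 before) or in flox/y (3 before), and 1, Chac1, was lower on HFHS in AdipoKO (2 before). In flox/y 3 were lower on HFHS (4 before), without Slc3a2. The shares of all genes past 2-fold were not computed, so these counts only describe the listed genes. Centred on bright probe sets, 1 gene, Slc7a5, was at least 1.5-fold higher in AdipoKO on STD (0 before). With the floor at the 70th percentile the median of the ATF4 and amino acid genes for HFHS over STD in flox/y was -0.38 (-0.15 before), with fewer genes in it, and after quantile normalization it was -0.06. Of 432 recomputed ratios of single genes 4 moved by more than 0.1. The mean of all probe sets could change Edem1 alone, as no other listed gene above the floor had several probe sets. Hsp90b1 and Calr had -0.19 and -0.04 for AdipoKO over flox/y on HFHS after quantile normalization, and Edem1 had 0.26 in AdipoKO and 0.42 in flox/y for HFHS over STD with the mean of its probe sets. limma called no listed gene after adjustment under any of 6 other settings for either effect. The lowest adjusted p of a listed gene for HFHS over STD lay between 0.0631 and 0.334 over these settings.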
